A study of Mus musculus with 6 samples.

Results

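The genes of MHC class II antigen presentation were followed in messenger RNA from splenic CD4+ T cells of C57BL/6 mice. They were chosen by name as a list of 10: H2-Aa, H2-Ab1, H2-Eb1, Cd74, Ciita, H2-DMa, H2-DMb1, H2-DMb2, H2-Oa and H2-Ob. The files held 39171 genes. Of the 10, 9 were found by the gene name in the files, and H2-DMb1, whose name field was blank there, by its Ensembl identifier. All 10 had a value above 0 in every library, and all passed the filter for testing (a mean of at least 1 FPKM, the fragments of a gene per kilobase of transcript, scaled to the mapped fragments of the library).

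The AngII group was 3 mice infused with angiotensin II, a peptide hormone that raises blood pressure, through an osmotic minipump that gave 800 ng/kg/min over 14 days. The Control group was 3 mice left untreated over the same time. Mice of both groups were 10 weeks old at the start, and the series describes them as premenopausal. Each library is from 1 mouse, and CD4+ T cells were taken from a suspension of spleen cells with a commercial isolation kit.

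MHC class II molecules are pairs of an alpha and a beta chain that carry peptides from ingested proteins to the cell surface, where CD4+ T cells read them. The invariant chain, encoded by Cd74, fills the groove of a new class II molecule and guides it to the endosome. There H2-DM removes the last piece of the invariant chain and helps peptides to bind, and H2-O holds H2-DM back. The transactivator CIITA, made from Ciita, switches these genes on together. In the mouse the machinery belongs to B cells, dendritic cells, macrophages and thymic epithelium, and T cells carry little of it. The E alpha gene is defective in C57BL/6, so this strain shows the A molecule alone.

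CIITA acts through proteins bound to a shared promoter layout. In it an X box, bound by RFX and CREB, stands at a nearly constant distance before a Y box, bound by NF-Y. The promoter stretches are shown because this layout is known from class II genes, and they show which members carry these letters. The RefSeq promoter table (build GRCm38.p6, 250 bases before to 50 after a gene's start) held 8 windows for 7 members, 2 of them for H2-DMa; H2-Ab1, Cd74 and Ciita were not analysed here. Capitals mark a Y box core, TGATTGG, and an X box core, made of AAC, 2 bases of any kind and ATGATG. The X core stands first where both are present. The letters were chosen after reading these windows, and both strands were searched. An X or Y box written in other letters would be missed, so a window without capitals is not shown to lack one. All 6 stretches are 60 bases long and written 5′ to 3′ along the gene. H2-Aa lies on the minus strand and the others on the plus strand.
H2-Eb1, chr17:34305761-34305820: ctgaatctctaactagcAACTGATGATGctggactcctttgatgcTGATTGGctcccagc
H2-DMb1, chr17:34153083-34153142: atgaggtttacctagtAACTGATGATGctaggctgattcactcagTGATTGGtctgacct
H2-DMb2, chr17:34145112-34145171: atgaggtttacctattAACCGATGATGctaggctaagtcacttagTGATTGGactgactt
H2-Ob, chr17:34238801-34238860: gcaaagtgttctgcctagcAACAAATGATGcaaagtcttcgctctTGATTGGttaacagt
H2-Aa, chr17:34287859-34287918: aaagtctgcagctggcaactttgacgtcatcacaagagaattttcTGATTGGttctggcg
H2-Oa, chr17:34092289-34092348: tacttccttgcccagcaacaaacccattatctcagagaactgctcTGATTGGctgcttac

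The Y core was found in 6 of the 7 genes, against 7.82% of the 32851 promoter windows in the table. It started between 45 bases (H2-Oa) and 92 bases (H2-DMb2) before the gene's start in RefSeq. The gene coordinates given below are from another annotation, GENCODE M21, whose starts can differ. The stretches of H2-DMb1 and H2-DMb2 lie inside the GENCODE genes. The X core was found in 4 of the 7, against 0.137% of all windows. Both cores stood together in 9 windows of the whole table, of which 4 belong to members. The gap from the end of the X core to the start of the Y core was 15 bases in H2-Ob, 17 in H2-Eb1 and 18 in H2-DMb1 and H2-DMb2. Neither core was in the windows of H2-DMa. Both of these windows lie inside its GENCODE gene, so the bases before its GENCODE start were not searched. Because the letters were chosen from these same windows, the counts among members describe that choice and are no test against the table.

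No class II gene passed the test between AngII and Control. The groups overlapped for all 10 genes, and 0 of 10 passed the limma threshold (adjusted p below 0.05, adjusted over 11842 genes), in a series where 0.0338% of all genes tested passed. At an unadjusted limma p below 0.05 the count was also 0 of 10, against 1.76% of all genes. The smallest unadjusted limma p was 0.235, for H2-Oa. Of the 10, 4 had a lower fitted value in AngII, against 52% of all genes tested. Their median log2 fold change was 0.02, beside -0.004 over all genes tested. The mean FPKM of H2-Aa, H2-Ab1, Cd74 and Ciita was lower in AngII while their log2 fold change was above 0, and the reverse held for H2-Ob, so the 2 scales differed in sign for 5 of the 10. What did vary was the level from mouse to mouse, and the genes of the list varied in different ways.

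**Figure D1:**
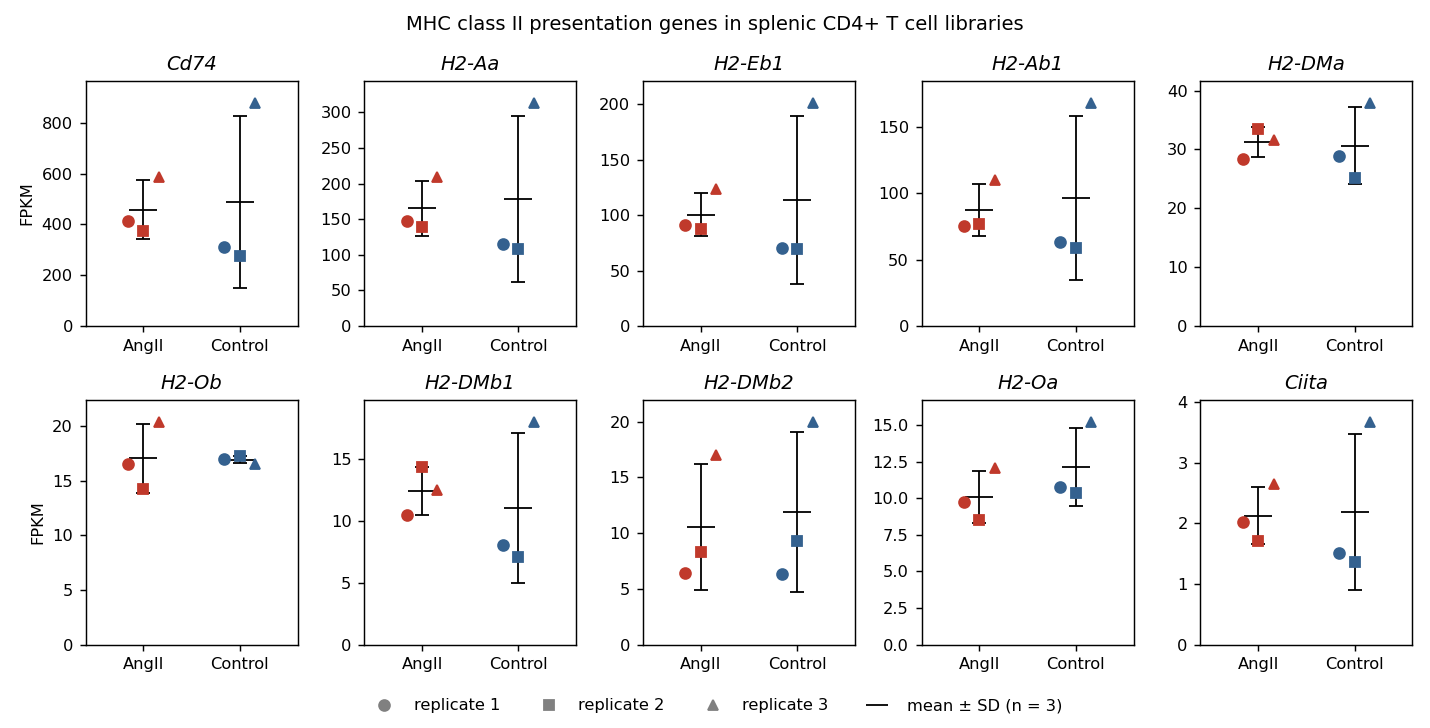
FPKM of each gene (vertical axis, linear, from 0) in the AngII and Control libraries, ordered by mean level; symbols are replicates, and bars are the mean ± SD of 3 libraries. Control replicate 3 is the highest of the 6 libraries for 9 of the 10 genes, and H2-Ob is the exception.

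The chains of the A molecule were high in 1 Control library. H2-Aa encodes the A alpha chain (ENSMUSG00000036594, GRCm38 chromosome 17, 34282744 to 34287823). It was at 147, 139 and 209 FPKM in AngII replicates 1, 2 and 3, against 115, 108 and 313 FPKM in the Control replicates. The highest value was in Control replicate 3 and the lowest were in the other two Control libraries, so the AngII values lay inside the Control range. The means were 165 ± 38.4 FPKM in AngII and 179 ± 116 in Control (SD, n = 3 each). The log2 fold change was 0.05 (SE 0.43, limma adjusted p = 0.9999), with a 95% interval of -1.01 to 1.103.

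H2-Ab1 encodes the A beta chain (ENSMUSG00000073421, chromosome 17, 34257689 to 34269419). It was at 75.4, 76.7 and 109.6 FPKM in AngII and at 63.4, 58.7 and 168 FPKM in Control. The order of the libraries was nearly that of H2-Aa. On the log2 scale the fold change was 0.006 (SE 0.42, limma adjusted p = 0.9999), and the 95% interval was -1.02 to 1.03.

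H2-Eb1 encodes the E beta chain, which lacks its partner in this strain (ENSMUSG00000060586, chromosome 17, 34305867 to 34316674). Its values were 91.0, 87.4 and 123 FPKM in AngII and 70.6, 69.4 and 201 FPKM in Control. The E beta message was thus present in all libraries at a level above that of A beta. The log2 fold change was -0.003 (SE 0.43, limma adjusted p = 0.9999). The E alpha pseudogene H2-Ea-ps was listed at 0.0333 FPKM in AngII replicate 1 and at 0 in the other libraries.

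Cd74 was the most abundant member (ENSMUSG00000024610, chromosome 18, 60803848 to 60812652). It stood at 414, 373 and 588 FPKM in AngII and at 311, 276 and 876 FPKM in Control. The pattern was again that of the A chains, with Control replicate 3 on top and AngII replicate 3 next. On the log2 scale the fold change was 0.09 (SE 0.46, limma adjusted p = 0.9999). Cd74, H2-Aa, H2-Eb1 and H2-Ab1 together made up 89.4% to 91.5% of the summed FPKM of the 10 members in AngII and 87.9% to 93.3% in Control.

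Ciita had the lowest level of the list (ENSMUSG00000022504, chromosome 16, 10480059 to 10528418). It was at 2.03, 1.71 and 2.65 FPKM in AngII and at 1.51, 1.36 and 3.67 FPKM in Control. Message of the regulator ordered the libraries as Cd74 and H2-Aa did. The log2 fold change was 0.04 (SE 0.29, limma adjusted p = 0.9999). In the GENCODE M21 annotation 3.45% of its exonic bases are shared with Dexi on the opposite strand, which was at 13.4 to 16.6 FPKM, and the strand used in counting is not given.

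The H2-DM chains did not move as one in the listed values. H2-DMa, the alpha chain (ENSMUSG00000037649, chromosome 17, 34119541 to 34139101), was at 28.4, 33.5 and 31.6 FPKM in AngII and at 28.9, 25.1 and 37.8 FPKM in Control. Its highest library was 1.51 times its lowest, where the same span was 2.90 for H2-Aa and 3.17 for Cd74. On the log2 scale the fold change was 0.04 (SE 0.16, limma adjusted p = 0.9999). The GENCODE M21 exons of H2-DMa share 10.4% of their bases with Brd2 on the opposite strand, a gene at 116 to 130.1 FPKM. The strand used in counting is not given, and the part of Brd2 in the level and span of H2-DMa was not tested.

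H2-DMb1 and H2-DMb2 are neighbouring genes for the beta chain (ENSMUSG00000079547, chromosome 17, 34153072 to 34160230, and ENSMUSG00000037548, chromosome 17, 34143307 to 34151555). H2-DMb1 was at 10.5, 14.3 and 12.5 FPKM in AngII and at 8.03, 7.07 and 18.0 FPKM in Control. H2-DMb2 was at 6.40, 8.26 and 17.0 FPKM in AngII and at 6.32, 9.33 and 19.97 FPKM in Control. For H2-DMb2 both replicates 3 stood far above the other 4 libraries, while for H2-DMb1 AngII replicate 3 lay between AngII replicates 1 and 2. The log2 fold changes were 0.26 (SE 0.34) and -0.12 (SE 0.48), with a limma adjusted p of 0.9999 for both. Their values are uncertain singly, since 27.2% of the 50-base words of the H2-DMb1 transcript also occur in that of H2-DMb2, and how shared reads were assigned is not given. The authors' deposited table treats the pair as 1 gene.

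The H2-O chains varied less than the A chains, with a highest library 1.79 times the lowest for H2-Oa and 1.43 times for H2-Ob. H2-Oa, the alpha chain (ENSMUSG00000024334, chromosome 17, 34092340 to 34095234), was at 9.72, 8.53 and 12.1 FPKM in AngII and at 10.8, 10.4 and 15.2 FPKM in Control. The log2 fold change of -0.24 (SE 0.18, limma adjusted p = 0.9999) had a 95% interval of -0.67 to 0.20. Of its exonic bases, 22.8% are shared with the antisense gene BC051537, which stayed at or below 0.372 FPKM. H2-Ob, the beta chain (ENSMUSG00000041538, chromosome 17, 34238903 to 34254414), was at 16.5, 14.2 and 20.4 FPKM in AngII and at 17.0, 17.2 and 16.6 FPKM in Control. Control replicate 3, the top library of the other 9 members, was here the lowest of its group. On the log2 scale the fold change of H2-Ob was -0.006 (SE 0.13, limma adjusted p = 0.9999), with a 95% interval of -0.32 to 0.30.

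FPKM is normalised to length, so the levels of the members can be ranked. The same order held at both ends of the list in all 6 libraries: Cd74, H2-Aa, H2-Eb1, H2-Ab1 and H2-DMa held ranks 1 to 5, and Ciita rank 10. Cd74 lay above the range of H2-Aa in AngII, and in Control their ranges overlapped. Over libraries the ranges of H2-Aa, H2-Eb1 and H2-Ab1 overlapped in both groups, except that H2-Aa stayed above H2-Eb1 and H2-Ab1 in AngII. H2-Ob, H2-DMb1, H2-DMb2 and H2-Oa changed places between libraries within ranks 6 to 9. Their overall means of 17.0, 11.7, 11.2 and 11.1 FPKM came with overlapping ranges in AngII, except that H2-Ob stayed above H2-Oa, and in Control, with the same exception.

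**Figure D2:**
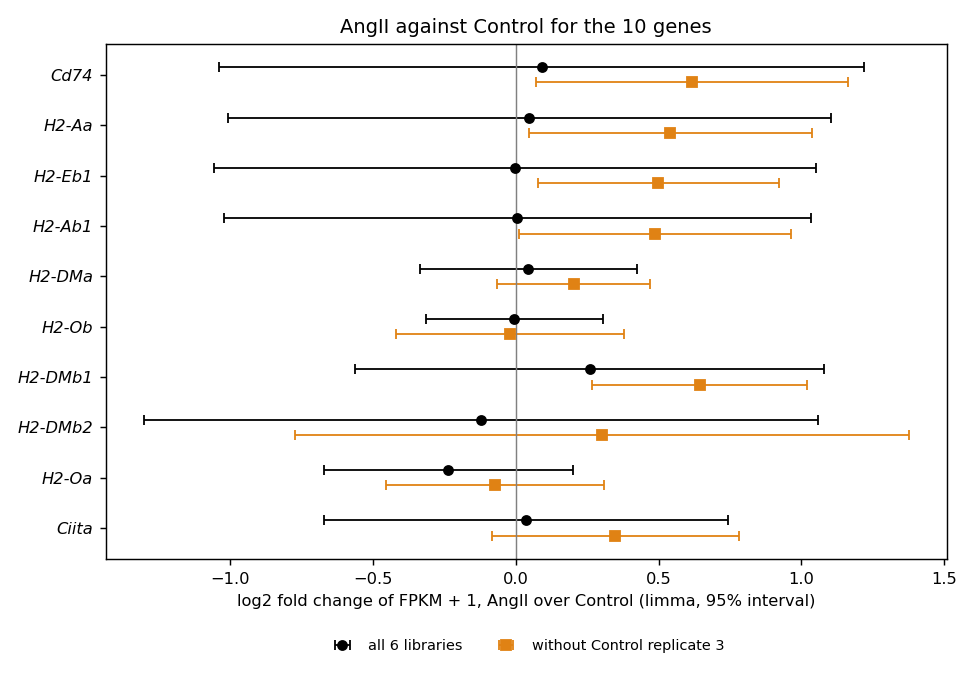
Log2 fold change of FPKM + 1 (horizontal axis), AngII over Control, for each gene with its 95% interval from limma, over all 6 libraries (circles) and without Control replicate 3 (squares). Over all 6 libraries each interval includes 0; without that library those of Cd74, H2-Aa, H2-Eb1, H2-Ab1 and H2-DMb1 lie above 0, with an adjusted p of 1 for each.

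Control replicate 3 stood apart from the other Control libraries. It was the highest of the 6 libraries for 9 of 10 members, against 12.5% of all genes tested. Its value was at least 2 times the mean of Control replicates 1 and 2 for 7 of 10, against 3.72% of all genes tested. Without it, 6 members lay above both remaining Control libraries in every AngII library, against 7.86% of all genes tested: H2-Aa, H2-Ab1, H2-Eb1, Cd74, Ciita and H2-DMb1. The log2 fold change was then 0.54 for H2-Aa (SE 0.19), 0.49 for H2-Ab1 (0.18), 0.50 for H2-Eb1 (0.16), 0.62 for Cd74 (0.21) and 0.64 for H2-DMb1 (0.15). These 5 had an unadjusted limma p between 0.00708 and 0.0465, against 1.61% of all genes that were higher at an unadjusted p below 0.05. All members had a limma adjusted p of 1, and 0 of 10 passed without that library, where 0.0594% of all genes did. The descriptions by this library were chosen after its values were seen. Leaving out the top library of 9 members in itself favours a higher AngII side. H2-Aa, H2-Ab1, H2-Eb1, Cd74 and Ciita also varied together, so the 6 members are not 6 separate cases. Of the 10 members, 2 had a lower fitted value in AngII with this library left out. The count was 8 on dropping either remaining Control library, or AngII replicate 3 instead. It was 1 on dropping AngII replicate 1 and 3 on dropping AngII replicate 2.

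Markers of B cells and dendritic cells were, like the members, mostly highest in Control replicate 3. Of 14 listed B cell markers 13 were measured, none listed at 0. Control replicate 3 was the highest library for 11 of the 13 and for 7 of 9 dendritic cell markers, against 12.5% of all genes tested. All 13 B cell markers and all 5 dendritic cell markers that were tested had lower fitted values in AngII, against 52% of all genes tested. None of them passed limma (adjusted p = 0.9999). Their summed FPKM was 612, 977 and 860 in AngII and 686, 774 and 1204 in Control, most of it from the antibody heavy chain gene Ighm, at 549.8, 908 and 704 FPKM in AngII and at 620.3, 689 and 1042 FPKM in Control. Cd79a, a chain of the B cell receptor, was at 8.503, 10.1 and 38.0 FPKM in AngII and at 10.5, 15.9 and 36.5 FPKM in Control. Ms4a1, which encodes CD20, was at 6.10, 6.74 and 20.2 FPKM in AngII and at 5.85, 9.25 and 20.7 FPKM in Control. Both replicates 3 stood above the other 4 libraries in Cd79a and Ms4a1, whereas Ighm was higher in AngII replicate 2 than in AngII replicate 3.

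The B cell markers set AngII replicate 3 and Control replicate 3 apart to different degrees. AngII replicate 3 had 38.0 FPKM of Cd79a and 109.6 of H2-Ab1, and Control replicate 3 had 36.5 of Cd79a and 168 of H2-Ab1. Ighm was at 704 FPKM in AngII replicate 3 and 1042 in Control replicate 3, and the B cell factor Pax5 at 5.44 and 7.08. The 9 dendritic cell markers summed to 14.1 FPKM in AngII replicate 3 and 24.0 in Control replicate 3, and to 10.9 to 15.3 in the other libraries. Itgax (CD11c) was at 3.32, 4.68 and 3.54 FPKM in AngII and at 3.23, 3.05 and 5.95 FPKM in Control. Flt3, the receptor of a dendritic cell growth factor, was at 0.845 to 1.09 FPKM in AngII and 0.631 to 1.86 in Control, and the dendritic cell factor Zbtb46 at 0.517 to 0.7975 and 0.404 to 0.791. None of the 9 was listed at 0 throughout.

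Macrophage markers were plentiful, and their sum was highest in AngII replicate 2. The 16 measured markers summed to 1702, 3270 and 1676 FPKM in AngII and to 1358, 1913 and 2364 FPKM in Control. Within Control the sum was thus highest in Control replicate 3, as most members were. Control replicate 3 was the highest of all libraries for 0 of the 16, against 12.5% of all genes tested, and so short a list is too few to read a difference from that share. C1qa, a complement gene of tissue macrophages, was at 184, 357.5 and 188 FPKM in AngII and at 160.2, 194 and 265 FPKM in Control. Csf1r, the M-CSF receptor, was at 95.5 to 157 and 91.8 to 122 FPKM, and Adgre1 (F4/80) at 35.7 to 57.4 and 32.1 to 60.9. AngII replicate 2, with the most C1qa, was the lowest AngII library for H2-Aa and Cd74 and the highest for H2-DMa and H2-DMb1.

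Markers of T cells and of lymphoid tissue inducer cells, an innate type that carries CD4 and class II in mice, were present in every library. Cd4 was at 238, 214 and 232 FPKM in AngII and at 254, 229 and 203 FPKM in Control, and Cd3e at 434 to 508 and 466 to 536. Kit, a growth factor receptor on the inducer cell list, was at 2.76 to 3.26 FPKM in AngII and 1.86 to 3.32 in Control. The 8 neutrophil markers summed to 24.0 to 75.5 FPKM in AngII and 8.07 to 42.1 in Control, with Ly6g listed at 0 in 5 libraries. The neutrophil alarmin S100a8 was at 5.75, 20.3 and 25.25 FPKM in AngII and at 2.53, 1.56 and 10.0 FPKM in Control. None of the 4 inducer cell, 6 neutrophil and 10 T cell markers that were tested passed limma (adjusted p = 0.9999). In RNA of pooled cells, fewer cells of a type and less RNA per cell cannot be told apart, and the part of any of these cells in the member levels was not tested.

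**Figure D3:**
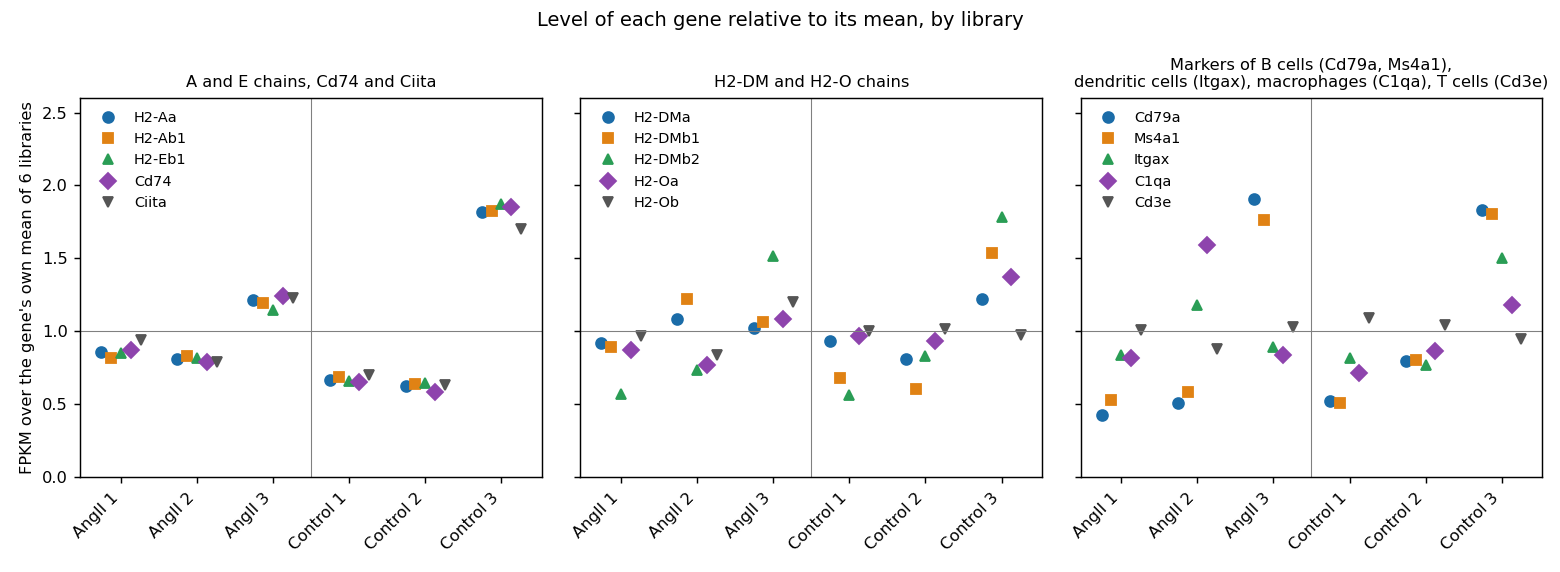
FPKM of each gene divided by its own mean over the 6 libraries (vertical axis), by library, for the A and E chains with Cd74 and Ciita (left), the H2-DM and H2-O chains (middle) and cell type markers (right). Cd79a and Ms4a1 are alike in AngII replicate 3 and Control replicate 3, where H2-Ab1 is at 1.19 and 1.82 times its mean.

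In the mean log2 level of the B cell markers the libraries fell into 2 clusters, so no pooled correlation with the members is given. Of 20 relations, those of the 10 members with the B cell and the dendritic cell list over 6 libraries, 0 passed after Benjamini-Hochberg adjustment of exact permutation p-values. Unadjusted, 7 of the 20 had an exact permutation p below 0.05. They were H2-Aa, H2-Ab1, H2-Eb1, Ciita, H2-Oa and H2-DMb2 with the B cell list, and H2-DMb2 with the dendritic cell list. With 6 libraries the permutation test has little room, so 0 passing does not show that a relation is absent. Without both replicates 3, the Pearson correlation with the B cell list was -0.70 for H2-Aa and -0.67 for H2-Ab1. It was -0.59 for H2-Eb1, -0.78 for Ciita, 0.14 for H2-Oa and 0.92 for H2-DMb2. Apart from H2-DMb2, these B cell relations thus rest on both replicates 3. H2-DMb2 parted the libraries as the B cell list did, with both replicates 3 high (17.0 and 19.97 FPKM) and both replicates 1 low (6.40 and 6.32). It is the member with the smallest exact permutation p of the 20 relations, and its values are uncertain apart from those of H2-DMb1. With the mean log2 level of the B cell list as a term in limma, an alternative added after seeing the data, the log2 fold changes of the members lay between -0.18 (H2-Oa) and 0.34 (H2-DMb1), with a limma adjusted p of 0.9999 for each. That fit rests on the same 2 clusters.

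Ratios within a library showed which members kept step. H2-Aa over H2-Ab1 was 1.95, 1.82 and 1.91 in AngII and 1.82, 1.84 and 1.87 in Control. H2-Eb1 over H2-Ab1 was 1.12 to 1.21 in AngII and 1.11 to 1.20 in Control. Across the 6 libraries the highest of each ratio was 1.08 times its lowest, while H2-Ab1 itself spanned 2.86-fold. Cd74 over H2-Ab1 was 5.24 ± 0.33 in AngII and 4.94 ± 0.265 in Control (SD, n = 3 each). For each of these 3 ratios the groups overlapped (exact permutation test on log2 ratios, two-sided, p = 0.4, 1 and 0.3, adjusted p = 1 over 8 ratios). With 3 against 3 the smallest p is 0.1, so no ratio could have passed.

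**Figure D4:**
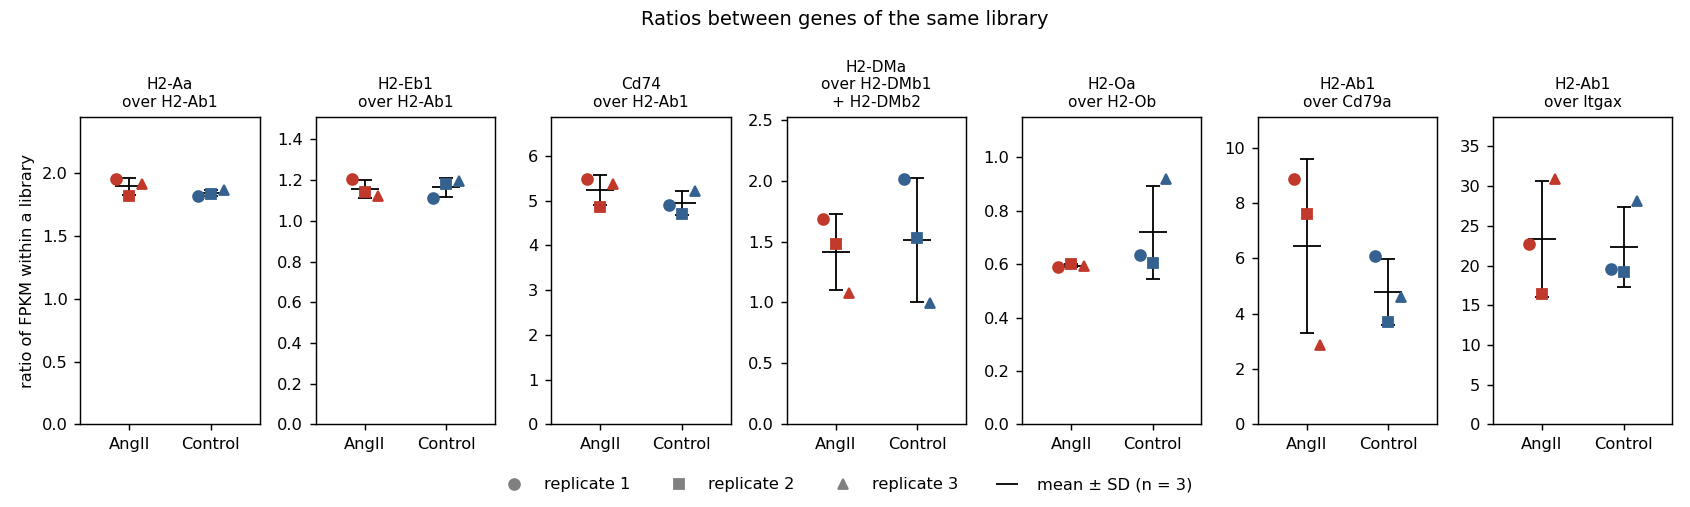
Ratio of FPKM of paired genes within each library (vertical axis, from 0), AngII left and Control right; symbols are replicates, and bars the mean ± SD of 3 libraries. H2-Aa over H2-Ab1 lies between 1.82 and 1.95 in all libraries, and H2-Ab1 over Cd79a between 2.88 and 8.87.

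The accessory chains were less even, and the H2-DM ratio carries the limits given above for Brd2 and for shared reads. H2-DMa over the sum of H2-DMb1 and H2-DMb2 was 1.69, 1.48 and 1.07 in AngII and 2.01, 1.53 and 0.995 in Control, lowest in both replicates 3 (exact permutation p = 0.9, adjusted p = 1). H2-Oa over H2-Ob was 0.590, 0.5999 and 0.591 in AngII and 0.634, 0.604 and 0.920 in Control. This was the 1 ratio of 8 whose groups did not overlap, lower in AngII (log2 difference -0.25, exact permutation p = 0.1, the smallest that 3 against 3 allows, adjusted p = 0.8). Without Control replicate 3 the difference was -0.06.

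Ratios to markers of B cells, dendritic cells and T cells spanned more than those between the A chains. H2-Ab1 over Cd79a was 8.87, 7.60 and 2.88 in AngII and 6.07, 3.68 and 4.59 in Control (exact permutation p = 0.7, adjusted p = 1). H2-Ab1 over Itgax was 22.7, 16.4 and 30.9 in AngII and 19.6, 19.2 and 28.2 in Control (exact p = 1). H2-Ab1 over Cd3e was 0.152, 0.177 and 0.2155 in AngII and 0.118, 0.114 and 0.3595 in Control (exact p = 1).

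Genes that work beside the members were tested as 5 lists, and 0 genes of any list passed limma. Of 13 genes that regulate class II transcription, 8 had lower and 5 higher fitted values in AngII, with a median log2 fold change of -0.05. Rfxap, a subunit of the RFX complex on the X box, was at 24.3 ± 0.993 FPKM in AngII and 26.8 ± 1.73 in Control (SD, n = 3 each; log2 fold change -0.13, limma adjusted p = 0.9999). It was the 1 gene of the 13 whose groups did not overlap, against 5.84% of all genes tested. Rfxank, another RFX subunit, Nfyc, a subunit of NF-Y, and the lymphocyte factor Irf4 had log2 fold changes of -0.11, -0.11 and -0.18.

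Of 10 antigen-processing genes, 8 had higher fitted values in AngII, with a median of 0.04. Ctss, the cathepsin that trims the invariant chain, was at 264 ± 39.3 FPKM in AngII and 251 ± 19.3 in Control (SD, n = 3 each; limma adjusted p = 0.9999). The proteases Ctsd, Ctsb and Lgmn had log2 fold changes of 0.14, 0.12 and 0.12. Each was highest in AngII replicate 2, the library with the most C1qa. Of 10 turnover and trafficking genes, 4 had higher fitted values. March1, the ubiquitin ligase that removes class II from the cell surface, was at 9.43 ± 2.57 FPKM in AngII and 7.48 ± 1.97 in Control (log2 fold change 0.30, limma adjusted p = 0.9999). Lamp1, Ap1m1 and Arl8b, genes of lysosomes and vesicle transport, had 0.10, -0.06 and 0.05.

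Of 8 partners of presentation, 4 had higher and 4 lower fitted values. Cd80, a ligand of CD28 on presenting cells, was at 2.24 ± 0.302 FPKM in AngII and 1.73 ± 0.384 in Control (SD, n = 3 each; log2 fold change 0.25, limma adjusted p = 0.9999). Cd40 had a log2 fold change of -0.26, Cd28 one of -0.09 and Lag3, a class II receptor of T cells, one of -0.25, none past the limma threshold. H2-Eb2, a second E beta gene, was at 1.01, 1.12 and 1.83 FPKM in AngII and at 0.919, 1.15 and 2.67 FPKM in Control. It had the order of H2-Eb1 at its top, with Control replicate 3 highest and AngII replicate 3 next (log2 fold change -0.11, limma adjusted p = 0.9999).

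The genes most like the A and E chains and Cd74 over the 6 libraries were sought among 10420 other tested genes, antigen receptor segments and predicted genes left out, by Pearson correlation with the mean log2 level of H2-Aa, H2-Ab1, H2-Eb1 and Cd74, as a description only. Among the members themselves the value was 0.99 for Ciita, 0.85 for H2-DMa, 0.86 for H2-DMb1 and H2-DMb2, 0.80 for H2-Oa and 0.21 for H2-Ob. Outside the list it reached at least 0.95 for 12 genes. The 8 highest were Myo1c and Myo1e (class I myosins), Cops7a (a COP9 signalosome subunit), Mdfic, Cd83 (which keeps class II at the surface of presenting cells), Tm2d2, Prdm1 and Pxdc1, between 0.96 and 0.98. Their spans were smaller: Cd83 was at 20.4, 22.4 and 24.0 FPKM in AngII and at 20.1, 18.0 and 30.3 FPKM in Control, and its highest library was 1.69 times its lowest. Control replicate 3 was the highest library for each of the 8. They were picked by likeness to genes that peak in that library, so this adds no separate evidence about it.

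In the authors' deposited table, from the authors' own test of 2 conditions named only by number, 0 members were significant. The p-values there lay between 0.1454 for H2-Oa and 0.95645 for H2-Ob, and the q-value was 0.999918 for each.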

How the data were processed

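Per the labels' protocols, CD4+ T cells were isolated from spleen, RNA was extracted and sequencing libraries followed Illumina's TruSeq protocol. Trimmomatic 0.32, TopHat2 2.1.1, Cuffdiff and build GRCm38.p3 are named, per the submitters' processing notes. The authors deposited FPKM per library, with sums of 613674 to 717286 per library and 11438 to 11757 genes at 1 FPKM or more. The number of reads behind a value is not given in the sources used here, so no counting intervals are given. The authors' deposited p-value and q-value of their own comparison were used with no direction, and 2 further value columns of that table were left aside.

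The members and lists were chosen with earlier results of these data known. Symbols came from a table of gene identifiers and names, coordinates and overlaps from GENCODE M21, and of the listed markers Ighd was not matched. Values were tested as log2(FPKM + 1) where the mean FPKM of a gene reached 1, which understates changes of low genes, with limma 3.58.1 in R 4.3.3 (intensity trend, two-sided, Benjamini-Hochberg adjusted p below 0.05 over 11842 genes). The code was tested on simulated data. Ratios were compared by exact permutation in Python 3.11.15 with scipy 1.17.1. Of each pathway list, up to 4 genes with the smallest p were named, together with the 8 genes most like the class II chains and fixed marker genes, of which 2 are not reported here. Alternatives were another pseudocount, filter or scaling, no trend, a replicate block and leaving out each library.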

Additional observations from a re-analysis of the deposited data

How the results depend on the processing

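No member passed the limma threshold under any alternative run. The count over all genes was 4, and it was 33 with no filter and 4 to 9 with 1 library left out. Fitted directions of the members were not stable, and the cause was not tested. With 1 library left out the log2 fold change ranged from -0.22 to 0.54 for H2-Aa, -0.26 to 0.49 for H2-Ab1, -0.26 to 0.50 for H2-Eb1, -0.21 to 0.62 for Cd74, -0.14 to 0.35 for Ciita, -0.085 to 0.20 for H2-DMa, -0.49 to 0.30 for H2-DMb2 and -0.14 to 0.11 for H2-Ob, and from -0.29 to 0.18 for H2-Eb2, -0.051 to 0.14 for Ctss, -0.087 to 0.23 for Ctsb and -0.16 to 0.28 for Lgmn. H2-DMb1 (0.025 to 0.64) and H2-Oa (-0.36 to -0.074) kept their sign. Small reversals were -2.4e-06 for H2-Ab1 with a pseudocount of 5, 0.0035 for H2-Eb1 and 0.00074 for H2-Ob with median-of-ratios scaling, and 0.020 for H2-Eb1, -0.00015 for Ciita and 0.0026 for H2-Ob with quantile normalization. With the B cell list as a term, added after seeing the data, H2-Eb1 was at 0.13, H2-DMb2 at 0.053 and H2-Ob at 0.017. Log2 ratio differences with 1 library left out ranged from -0.041 to 0.012 for H2-Eb1 over H2-Ab1, -0.34 to 0.17 for H2-DMa over both H2-DMb genes, -0.00011 to 0.81 for H2-Ab1 over Cd79a, -0.19 to 0.27 for H2-Ab1 over Itgax and -0.20 to 0.63 for H2-Ab1 over Cd3e. Deviations from the group mean, correlated over all genes tested between libraries of the same replicate number, gave -0.080, -0.023 and -0.035. A correlation over all genes cannot show a pairing limited to few genes, and both replicates 3 were high in Cd79a, Ms4a1 and H2-DMb2. With the replicate number as a block 3 genes passed over all genes, none of them a member. With 3 mice a group, the 95% interval of H2-Aa ran from -1.01 to 1.103 on the log2 scale, and that of H2-Ob from -0.32 to 0.30.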
